A study of Mus musculus with 6 samples.

Results

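The Slc25 genes encode the mitochondrial carrier family, and their transcripts were compared here between testes lacking Nxf2 and wild-type testes. Members were taken as every gene whose only symbol in the platform's probe-to-gene table starts with Slc25a, each read from its probe set with the highest mean signal over all 6 arrays. This gave 44 genes, covered by 93 probe sets, among 18193 genes with a single symbol. A dim limit on the mean signal, 20.5, left 43 of the 44 for testing, and Slc25a48 lay below it. Whole testes of mice at postnatal day 21 were measured on 1-colour Affymetrix arrays, with 3 arrays from Nxf2 knockout testes (KO) and 3 from wild-type testes (WT), 1 per sample. All 6 are total RNA of testes of the same age, and no treatment is named. The sources used here give neither the strain, nor how the Nxf2 allele was made, nor how many animals went into a sample. The design text speaks of 3 pairs of testes without saying which KO and WT samples form a pair, and the samples were treated as unpaired. The p-values reflect only the spread among these arrays, part of which may be technical. The number of arrays limits the precision.

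Carriers of this family are small proteins, each built from 3 repeats of a similar stretch, and most sit in the inner mitochondrial membrane. Many exchange a metabolite on one side for another on the other side. The ADP/ATP carriers send ATP out to the cytosol and bring ADP in, and other members move phosphate, carboxylates, amino acids, nucleotides, cofactors and iron. In the mouse, Slc25a4 and Slc25a5 encode the ADP/ATP carriers of somatic tissues, and Slc25a5 lies on the X chromosome, which is silenced in spermatocytes. Slc25a31 encodes an autosomal ADP/ATP carrier made in male germ cells from meiosis on, and male mice without it are sterile. Around this age the seminiferous tubules contain spermatogonia, spermatocytes and early spermatids, next to Sertoli cells, Leydig cells and other somatic cells.

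The arrays were alike in their overall signal, with medians between 37.1 and 40.9 and Spearman correlations of 0.965 to 0.992 over the tested probe sets. The targeted gene checked the labels. The Nxf2 probe set had signals of 116, 106 and 131 in KO and 374, 340.4 and 386 in WT, a log2 change, KO over WT, of -1.59 ± 0.0999 (SE, limma, adjusted p = 0.000488). Where its probes lie relative to the deleted part is not given. Over all 27022 tested probe sets, 7.49% were called at an adjusted p under 0.05 (limma with Benjamini-Hochberg adjustment). The number of calls ranged from 164 to 1547 when single arrays were left out, and it was lowest without WT replicate 1. In a bulk sample, fewer cells of a type and less RNA per cell cannot be told apart, which holds for every value below.

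Of the 43 tested carrier genes, 4 were called. Slc25a2 and Slc25a54 fell in KO, and Slc25a4 and Slc25a5 rose. The 2 falls make up 4.65% of the tested members, beside 7.37% of 12971 tested genes read from their brightest probe sets. The 2 rises make up 4.65% of the members, beside 2.98% of those genes. In both directions together 10.3% of these genes were called, and over all probe sets 5.23% were called lower and 2.26% higher. Neither share of members is far from its background. The median log2 change of the members was 0.12, against 0.036 over all tested genes, and 31 of 43 members (72.1%) had a higher mean in KO, against 56.9% of genes. The count of 31 became 30 after quantile normalization and 28 after median centring. The background moved too, with a median log2 change over all tested probe sets of 0.037, 0.022 and -0.00097 in these 3 fits. With a dim filter at the 60th percentile, 20 of the 31 members still tested had a higher mean in KO. In 12 members (27.9%, against 21.5% of genes) every KO value lay above every WT value, and in 3 members (6.98%, against 18.3%) every KO value lay below.

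**Figure D1:**
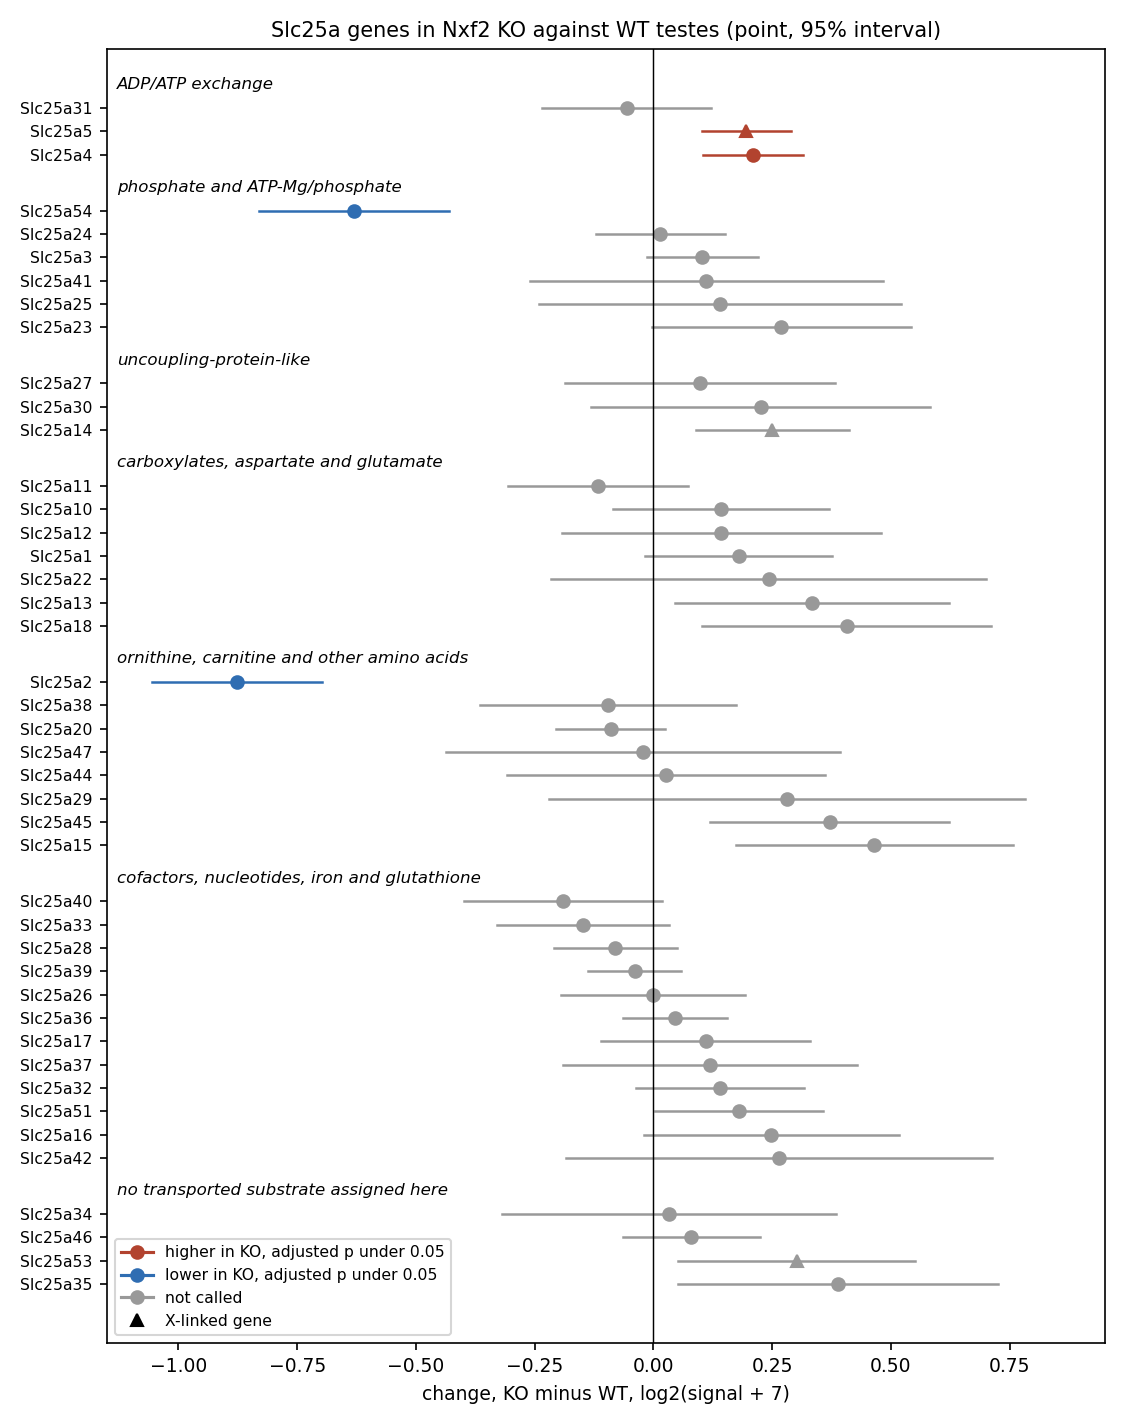
Change of each of the 43 tested Slc25a genes, KO minus WT on the log2(signal + 7) scale, with its 95% interval from the limma fit; genes are grouped by what they carry, coloured points were called at an adjusted p under 0.05 and triangles are X-linked genes. Slc25a2 and Slc25a54 sit alone on the left at -0.88 and -0.63, while the other 41 genes lie between -0.19 and 0.46.

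Of the 3 ADP/ATP carriers, Slc25a4 and Slc25a5 rose and Slc25a31 did not pass; the differences between these changes are tested further on. Slc25a31, the germ cell carrier gene, had overlapping groups. Its signals were 866, 909 and 733 in KO replicates 1 to 3 and 809, 906 and 885 in WT replicates 1 to 3. They crossed, with the highest value and the lowest value both in KO. Its mean was 836 ± 92.0 in KO and 867 ± 50.8 in WT (SD, n = 3 each), a log2 change of -0.057 with a 95% interval of -0.23 to 0.12 (limma, adjusted p = 0.673). This interval does not reach the change of -0.88 measured for Slc25a2. Without KO replicate 3, its lowest sample, the change was 0.035, so no direction is given for this gene.

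Slc25a4, the ADP/ATP carrier gene typical of muscle and heart, rose in KO. Its signals were 1141, 1141 and 1126 in KO and 932, 999 and 1018 in WT. Every KO value lay above every WT value, and the means were 1136 ± 8.61 and 983 ± 45.0 (SD, n = 3 each). The log2 change was 0.21 ± 0.047 (SE, limma, adjusted p = 0.0294), a 1.16-fold rise. Of its other probe sets 2 were tested, with log2 changes of 0.18 and 0.25 that did not pass (adjusted p = 0.125 and 0.0716), and 1 was below the dim limit. The call was lost under 9 of 16 alternatives, among them leaving out KO replicate 1, KO replicate 2, KO replicate 3, WT replicate 1 or WT replicate 2 (0.17 to 0.22 in these 5 fits), with adjusted p from 0.000567 to 0.375 over all 16.

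Slc25a5, the ubiquitous and X-linked ADP/ATP carrier gene of dividing cells, rose by a similar amount. Its signals were 1312, 1309 and 1342 in KO and 1109, 1167 and 1183 in WT. The groups did not overlap, with means of 1321 ± 17.8 and 1153 ± 38.95 (SD, n = 3 each). The log2 change was 0.20 ± 0.042 (SE, limma, adjusted p = 0.0251), a 1.15-fold rise. This gene has 8 probe sets, all tested. In all 8 every KO value lay above every WT value, and 4 of the 8 were called. Over all tested probe sets 19.1% were apart in this way and 2.26% were called higher. Among tested X-linked genes 55.5% were apart in this way. The 8 probe sets read 1 gene on the same arrays, so they are not independent measurements. The changes of the other 7 ran from 0.17 to 0.38. Most are of a type that can also bind related transcripts, so processed copies of this gene cannot be told apart from it. The call of the brightest probe set was lost under 7 of 16 alternatives, among them leaving out KO replicate 2, KO replicate 3, WT replicate 1 or WT replicate 3 (0.17 to 0.21 in these 4 fits), with adjusted p from 0.000665 to 0.132 over all 16.

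**Figure D2:**
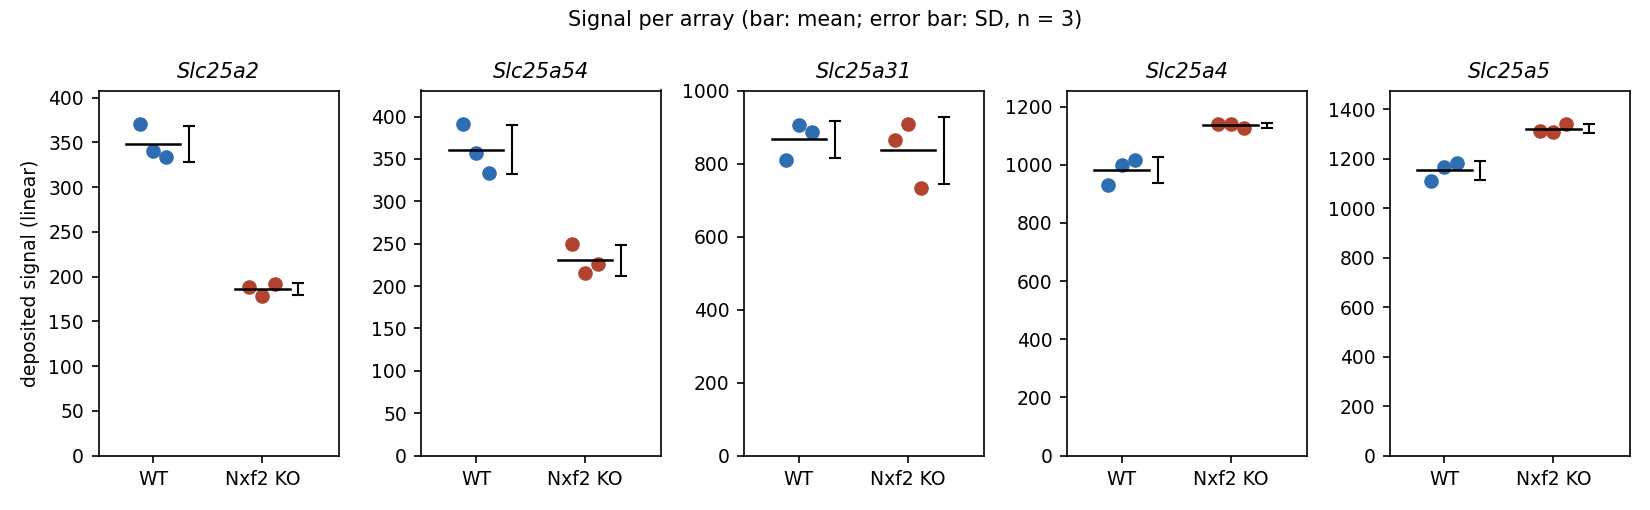
Deposited linear signal of 5 Slc25a genes on each WT (blue) and Nxf2 KO (red) array, with the group mean as a bar and the SD beside it (n = 3 each); each panel has its own axis from 0. The KO points of Slc25a2 and Slc25a54 lie below all WT points, those of Slc25a4 and Slc25a5 lie above, and those of Slc25a31 overlap the WT range.

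Of the ornithine carriers 1 fell and 1 did not pass. Slc25a2, counted here among the germ cell carriers, is a paralogue of Slc25a15, and the family's ornithine carriers link the urea cycle and polyamine precursors of the cytosol to the mitochondrial matrix. Slc25a2 fell, with signals of 188, 179 and 192 in KO and 371, 340.0 and 334 in WT. The highest KO value was well below the lowest WT value. Its mean was 186 ± 6.92 in KO and 348 ± 19.9 in WT (SD, n = 3 each), a log2 change of -0.88 ± 0.081 (SE, limma, adjusted p = 0.00273) and a 1.84-fold fall. It passed under all 16 alternatives, with changes from -0.97 to -0.78 and adjusted p of up to 0.0282, the latter without WT replicate 1. The gene has 1 probe set, so no second measurement was at hand.

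Slc25a15, the main ornithine carrier gene of liver, was on the other side of its WT values without passing the test. Its signals were 77.0, 68.0 and 84.7 in KO and 57.8, 48.1 and 54.5 in WT. The groups did not overlap, and the log2 change was 0.46 ± 0.13 (SE, limma, adjusted p = 0.0592). This is the largest positive change among the 43 members. It passed with array weights (0.32, adjusted p = 0.0335) and as the mean of its 2 probe sets (0.53, adjusted p = 0.0252), and over all its alternatives the adjusted p ran from 0.0252 to 0.17. Its other probe set was below the dim limit. On each array the log2 ratio of Slc25a2 to Slc25a15 was 1.22, 1.31 and 1.12 in KO and 2.54, 2.65 and 2.47 in WT, so the ratio lay 1.34 lower on the log2 scale in KO. This pair was singled out after its values were seen and has no test of its own.

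Among the carriers of ATP-Mg and phosphate, Slc25a54 alone was called. Slc25a54 is a paralogue of Slc25a24, whose product is a calcium-regulated carrier, and no other protein-coding gene lies between it and Slc25a24 in the RefSeq annotation. Slc25a54 fell, with signals of 250.2, 215 and 226 in KO and 392, 357 and 334 in WT. The groups did not overlap, with means of 230.5 ± 18.0 and 361 ± 29.0 (SD, n = 3 each). The log2 change was -0.63 ± 0.090 (SE, limma, adjusted p = 0.00648), a 1.55-fold fall. The call held under 15 of 16 alternatives and was lost without WT replicate 1 (log2 change -0.57, adjusted p = 0.0514).

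Slc25a24, which encodes the ATP-Mg/phosphate carrier of many somatic tissues, had a mean of 485 ± 9.55 in KO and 480.0 ± 19.4 in WT (SD, n = 3 each). Its log2 change was 0.015 with a 95% interval of -0.12 to 0.15, and its sign turned to -0.023 after median centring. The log2 ratio of Slc25a54 to Slc25a24 was -0.92, -1.18 and -1.06 on the KO arrays and -0.34, -0.43 and -0.45 on the WT arrays, a shift of -0.65 without overlap. This had to follow, since Slc25a54 fell without overlap and Slc25a24 changed little. The ratio is no support beyond Slc25a54 alone, and the pair has no test of its own. The other neighbouring pair, Slc25a41 and Slc25a23, overlapped in its log2 ratio, and Slc25a41 lay near the dim limit in both groups (22.2 ± 3.27 in KO and 20.1 ± 4.29 in WT). The paralogue pairs Slc25a12 to Slc25a13, Slc25a18 to Slc25a22, Slc25a28 to Slc25a37, Slc25a39 to Slc25a40 and Slc25a33 to Slc25a36 overlapped as well. Slc25a3, the phosphate carrier gene needed for ATP synthesis, had a log2 change of 0.10 (adjusted p = 0.226), Slc25a23 one of 0.27 (adjusted p = 0.18), and Slc25a25 one of 0.14 (adjusted p = 0.62). Of the 6 genes in this group 1 fell and 5 did not pass.

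The stretches just before the starts of 3 called genes, and of Slc25a31, are shown side by side. No stretch is shown for Slc25a2, so Slc25a54 is the only called fall among them. The stretches shown are the 250 bases before each gene's start in the RefSeq annotation of GRCm38.p6, written 5′ to 3′ on the gene's strand. Slc25a31 is read from the plus strand at chr3:40708621-40708870, Slc25a54 from the plus strand at chr3:109080249-109080498, Slc25a4 from the minus strand at chr8:46211063-46211312 and Slc25a5 from the plus strand at chrX:36795347-36795596. Capitals mark matches, on either strand, to any of 5 short motifs.
Slc25a31: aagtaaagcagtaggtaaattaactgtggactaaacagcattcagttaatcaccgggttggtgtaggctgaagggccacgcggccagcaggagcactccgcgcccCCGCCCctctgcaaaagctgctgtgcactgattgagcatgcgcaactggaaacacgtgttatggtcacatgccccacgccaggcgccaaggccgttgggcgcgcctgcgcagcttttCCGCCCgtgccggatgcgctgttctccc
Slc25a54: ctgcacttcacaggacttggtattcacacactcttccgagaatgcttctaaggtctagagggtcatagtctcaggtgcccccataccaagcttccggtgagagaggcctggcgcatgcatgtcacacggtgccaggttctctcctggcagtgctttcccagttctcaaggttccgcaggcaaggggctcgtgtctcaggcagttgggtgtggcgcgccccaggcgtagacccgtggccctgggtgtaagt
Slc25a4: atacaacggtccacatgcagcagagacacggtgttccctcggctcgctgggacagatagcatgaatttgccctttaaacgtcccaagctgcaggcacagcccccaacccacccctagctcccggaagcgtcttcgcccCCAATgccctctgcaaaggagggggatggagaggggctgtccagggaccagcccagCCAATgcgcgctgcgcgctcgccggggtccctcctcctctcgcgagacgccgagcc
Slc25a5: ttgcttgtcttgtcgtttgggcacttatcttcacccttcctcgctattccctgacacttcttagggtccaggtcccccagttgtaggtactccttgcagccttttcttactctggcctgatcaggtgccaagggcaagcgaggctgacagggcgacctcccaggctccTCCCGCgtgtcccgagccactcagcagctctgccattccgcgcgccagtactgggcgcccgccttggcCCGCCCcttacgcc

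The 5 motifs were the E2F core TCCCGC, the CRE core TGACG, the GC box GGGCGG, the TATA box TATAAA and the CCAAT box, each searched on both strands, and no matches overlapped here. The Slc25a31 stretch held 2 GC boxes, 145 and 28 bases before the start, and the Slc25a5 stretch 1 GC box and 1 E2F core. The Slc25a4 stretch held 2 CCAAT boxes, 112 and 56 bases before the start, and the Slc25a54 stretch held none of the 5 motifs. Among 32851 promoter stretches of the same length, 32.7% held a GC box, 33.8% a CCAAT box, 17.8% a CRE core, 16.9% an E2F core and 12.4% a TATA box. The GC content was 59.6% for Slc25a31, 58.8% for Slc25a54, 64.8% for Slc25a4 and 61.6% for Slc25a5, all above the median of 52.4%. These stretches held 18, 10, 18 and 14 CpG dinucleotides in the same order, against a median of 6. A match is a description of the letters only.

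The germ cell carriers Slc25a31 and Slc25a2 were then set against the somatic carriers Slc25a4 and Slc25a5 by the log2 ratio on each array, since only the shift of such a ratio, not its level, can be read between probe sets. The ratio of Slc25a2 to Slc25a4 was -2.56, -2.63 and -2.51 in KO and -1.31, -1.54 and -1.59 in WT, a shift of -1.09. The ratio of Slc25a2 to Slc25a5 shifted by -1.07. For Slc25a31 the shifts were smaller. Its ratio to Slc25a4 was -0.40, -0.33 and -0.62 in KO and -0.20, -0.14 and -0.20 in WT, a shift of -0.27, and its ratio to Slc25a5 shifted by -0.25. In all 4 pairs every KO ratio lay below every WT ratio. For the pairs with Slc25a2 this had to follow, since Slc25a2 fell and Slc25a4 and Slc25a5 rose without overlap. Those ratios are no support beyond the single genes. No share of such separate ratios over other gene pairs was taken. By a two-sided exact permutation test each of the 4 pairs gave p = 0.1 (0.1 after Benjamini-Hochberg adjustment over the 4). This is the smallest p that 3 arrays against 3 can give, so none can pass at 0.05. All 4 shifts stayed negative under the 12 alternatives run for them, from -0.33 to -0.16 for Slc25a31 to Slc25a4 and from -1.14 to -0.98 for Slc25a2 to Slc25a4. A ratio shows unequal change within an array and does not say which gene of the pair moved.

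**Figure D3:**
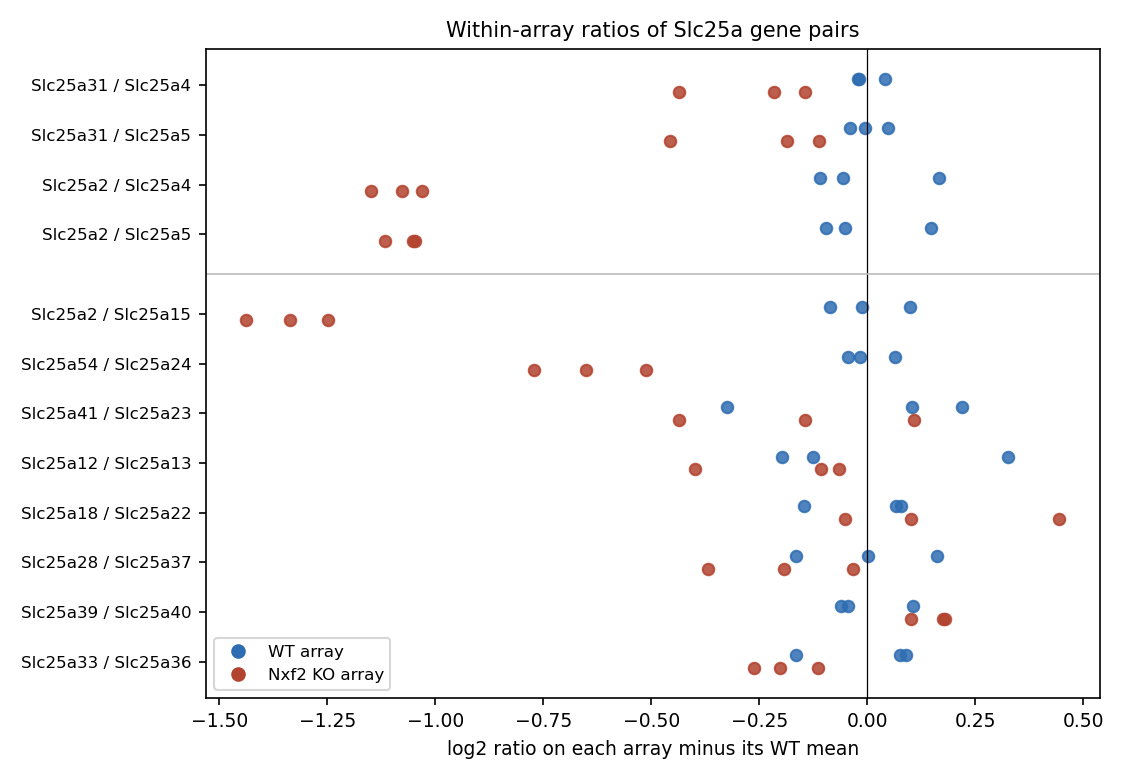
Log2 ratio of 2 Slc25a genes on each array, minus that pair's WT mean; WT arrays are blue and KO arrays red, germ cell against somatic carriers are above the line and paralogue pairs below it. The 3 pairs farthest to the left are those with Slc25a2, with shifts of -1.34 to -1.07, and the next is Slc25a54 to Slc25a24.

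The carriers of carboxylates, aspartate and glutamate serve the malate-aspartate shuttle and the export of citrate. Of their 7 genes none was called (limma), and 2 had an unadjusted p under 0.05. Such a p was common, as 12 of the 43 tested members had one, and 0.0472 for Slc25a51 became 0.17 after adjustment (limma). No share over all probe sets is given for such counts, here or below. Of the 7 genes 6 had a higher mean in KO. Slc25a18, a glutamate carrier gene, had signals of 287, 279 and 365 in KO and 229, 195 and 275 in WT. All KO values lay above the WT values, by a narrow gap, and the log2 change was 0.41 (SE 0.14, limma, adjusted p = 0.0927). Slc25a13, which encodes the aspartate/glutamate carrier citrin, had a log2 change of 0.33 (adjusted p = 0.13), and its paralogue Slc25a12 one of 0.14 with overlapping groups. Slc25a1, the citrate carrier gene, had means of 186 ± 5.18 in KO and 163 ± 8.20 in WT (SD, n = 3 each) that did not overlap array by array, with a log2 change of 0.18 (adjusted p = 0.211). Slc25a10, the dicarboxylate carrier gene, and Slc25a22, a second glutamate carrier gene, had log2 changes of 0.14 and 0.24.

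Slc25a11, which encodes the oxoglutarate/malate carrier of the same shuttle, lay the other way. Its signals were 178, 168 and 167 in KO and 185, 187 and 186 in WT. The groups did not overlap, but the log2 change of -0.12 did not pass (limma, adjusted p = 0.394). By the brightest probe sets, it is the only member outside the 2 called falls whose KO values all lay below the WT values. Slc25a39 and Slc25a20 each had 1 dimmer probe set that was also apart in this direction, neither of them called.

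Among the carriers of amino acids and carnitine, Slc25a2 was the only called gene of 8 tested. Slc25a45 had signals of 352, 311 and 428 in KO and 291, 255 and 288 in WT. Every KO value lay above the WT values, and the log2 change was 0.37 (SE 0.11, limma, adjusted p = 0.0719). Slc25a20, the carnitine/acylcarnitine carrier gene needed to burn fatty acids, had means of 762 ± 17.7 in KO and 812 ± 31.4 in WT (SD, n = 3 each), a log2 change of -0.090 (adjusted p = 0.276). Slc25a38, the glycine carrier gene that feeds haem synthesis, had signals of 80.5, 77.1 and 89.8 in KO and 87.9, 80.3 and 97.8 in WT. These overlapped, with a log2 change of -0.095 (adjusted p = 0.635). Slc25a44, a carrier gene for branched-chain amino acids, Slc25a47 and Slc25a29, a carrier gene for basic amino acids, had changes of 0.026, -0.023 and 0.28. The 3 probe sets of Slc25a48, the untested member, all had mean signals below the dim limit, the brightest at 8.25 ± 1.60 in KO and 5.54 ± 1.39 in WT (SD, n = 3 each).

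None of the 12 carriers of cofactors, nucleotides, iron and glutathione was called (limma), with 1 at an unadjusted p under 0.05. Their log2 changes ran from -0.19 to 0.26, with 7 means higher and 5 lower in KO. The glutathione carrier gene Slc25a40 had signals of 233, 204 and 198 in KO and 252, 225 and 249 in WT. Only 1 KO array reached into the WT range, and the log2 change was -0.19 (limma, adjusted p = 0.208). Its paralogue Slc25a39 had a log2 change of -0.039, and its 3 other tested probe sets -0.20 to -0.098, none of them called. Slc25a33, which encodes a pyrimidine nucleotide carrier, had signals of 340.3, 322 and 307 in KO and 367, 328 and 383 in WT. The groups overlapped by 1 KO array, and the log2 change was -0.15 (adjusted p = 0.257). The related Slc25a36 had a log2 change of 0.045.

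The mitoferrin genes Slc25a28 and Slc25a37, whose products bring iron into mitochondria, had log2 changes of -0.080 and 0.12 (adjusted p = 0.39 and 0.605). Slc25a32, the folate and flavin carrier gene, had means of 234 ± 7.13 in KO and 212 ± 5.98 in WT (SD, n = 3 each) with no overlap between arrays, a log2 change of 0.14 (adjusted p = 0.27). Slc25a16 did not overlap either (0.25, adjusted p = 0.206). Slc25a51, the NAD carrier gene, had a log2 change of 0.18 (adjusted p = 0.17), Slc25a42, a coenzyme A carrier gene, one of 0.26, and Slc25a17, whose product sits in peroxisomes, one of 0.11. Slc25a26, the S-adenosylmethionine carrier gene, had one of -0.0014 with a 95% interval of -0.20 to 0.19.

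Of the 4 members for which no transported substrate is given here, none passed (limma), with 2 at an unadjusted p under 0.05. Slc25a35 had signals of 50.1, 51.9 and 59.5 in KO and 45.5, 31.8 and 41.9 in WT. The groups did not overlap, and the log2 change was 0.39 (SE 0.15, limma, adjusted p = 0.13). Slc25a46, which acts in the outer membrane in mitochondrial fission and fusion, had a log2 change of 0.080 (adjusted p = 0.442), and Slc25a34 one of 0.032. Among the uncoupling-protein-like carriers, Slc25a27 and Slc25a30 had log2 changes of 0.098 and 0.23 with overlapping groups. Over all members, 18 had a further tested probe set, and in 3 of these, Slc25a25, Slc25a26 and Slc25a27, it had the opposite sign.

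The 3 X-linked members all had higher means in KO, and in all 3 every KO value lay above every WT value. Beside Slc25a5, these were Slc25a14 and Slc25a53. Slc25a14, an uncoupling-protein-like carrier gene, had means of 521 ± 31.8 in KO and 437 ± 27.9 in WT (SD, n = 3 each), a log2 change of 0.25 ± 0.072 (SE, limma, adjusted p = 0.0638). Slc25a53 had means of 170.0 ± 9.87 and 137 ± 17.1 and a log2 change of 0.30 ± 0.11 (SE, adjusted p = 0.118), and both of its probe sets had separate groups. X-linked genes as a whole lay on the same side. Of 429 tested X-linked genes 89.7% had a higher mean in KO (88.8% after quantile normalization and 87.6% after median centring), 55.5% had every KO value above every WT value and 10.7% were called higher. The median log2 change of X-linked genes was 0.24, beside 0.25 for the 3 carriers. The 40 tested autosomal members had a median of 0.11, with 28 means higher and 12 lower.

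Genes that work with the carriers mostly did not pass. Their counts stand beside 2.98% of all tested genes called higher and 7.37% called lower. The import route that brings carriers to the inner membrane runs through the outer membrane pore, the small Tim chaperones and the TIM22 complex. Of its 13 genes 1 rose and none fell, with a median log2 change of 0.024. The gene that rose was Timm8a1, an X-linked small Tim chaperone gene, with means of 456 ± 27.3 in KO and 341 ± 36.0 in WT (SD, n = 3 each) and a log2 change of 0.42 ± 0.087 (SE, adjusted p = 0.0231). Its call was lost in 6 of 15 alternatives, among them leaving out KO replicate 1, KO replicate 3, WT replicate 1 or WT replicate 2, with adjusted p of up to 0.103. Among outer membrane channels and other routes for metabolites, 1 of 15 tested genes rose and 1 fell, with a median of 0.036. Sfxn1, the serine transporter gene of mitochondria, rose by 0.34 on the log2 scale (adjusted p = 0.0417), a call lost in 9 of 15 alternatives, among them leaving out any of the 6 arrays. Crat, which encodes carnitine acetyltransferase, had a log2 change of -0.31 and fell (adjusted p = 0.032), from 799 ± 15.6 to 646 ± 63.8 (SD, n = 3 each). Its call was lost in 6 of 15 alternatives, among them leaving out KO replicate 2, WT replicate 1, WT replicate 2 or WT replicate 3. The 3 Vdac genes, which encode the main outer membrane channels, had changes of 0.036, -0.079 and -0.0043. Of the carrier-family genes with other names, Mtch1 and Mtch2 were tested and neither passed, 1 of them with an unadjusted p under 0.05 (limma; log2 changes 0.30 and -0.15, adjusted p = 0.191 and 0.127).

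Markers of cell types differed between the groups as well. Among all tested genes 7.37% were called lower and 2.98% higher. Of 14 round spermatid genes 12 fell and none rose, with a summed signal of 3609 to 3733 in KO and 4824 to 5388 in WT. Bright genes weigh most in such a sum, here among them Tex101, with means of 1383 in KO and 1423 in WT. The median log2 change of the round spermatid genes was -0.96. Of 11 tested elongating spermatid genes 8 fell, and the sum was 471 to 602 in KO and 900.4 to 1918 in WT. Their median log2 change was -1.44. The 3 that were not called, Tnp1, Tnp2 and Prm1, had mean signals near the dim limit (23.4, 28.8 and 28.6 over all arrays). Whether elongating spermatids were present in either group was not tested. Of 11 tested pachytene spermatocyte genes 6 fell, with sums of 8457 to 9650 and 10248 to 10599 and a median log2 change of -0.23. Without WT replicate 1 the falls numbered 2, 0 and 1 in these lists, and without WT replicate 3 the pachytene falls numbered 2. As a percentage of their means, the WT arrays ran from 93.8% to 105% for round spermatid genes, 98.2% to 102% for pachytene genes and 61.9% to 132% for elongating spermatid genes, beside 95.9% to 107% for Slc25a2 and 92.6% to 109% for Slc25a54.

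The counts of the other lists stand beside the same shares of all tested genes, 2.98% called higher and 7.37% called lower. Of 9 spermatogonial genes 4 rose and none fell, with sums of 3932 to 3970 in KO and 3261 to 3385 in WT. Without WT replicate 1 there were 2 rises. Of 10 Sertoli cell genes 3 rose (6576 to 6968 against 5754 to 6092), a count that was 0 after median centring and 0 to 1 with any single array left out. It was 8 with array weights and 6 with the replicate block, where calls over all probe sets also rose, to 7217 and 4503. Of 7 Leydig cell genes 2 rose (2858 to 4176 against 2375 to 2705), with 1 rise without KO replicate 1 and none without KO replicate 3 or WT replicate 1. None of 10 macrophage genes was called (limma), though 6 had an unadjusted p under 0.05 and 3 rose without KO replicate 1, with sums of 2295 to 3546 in KO and 1587 to 2176 in WT. With array weights and the replicate block, the rises were 7 and 4 for spermatogonial, 5 and 5 for Leydig cell and 3 and 5 for macrophage genes. Among 5 tested fat genes 2 rose and 1 fell (1001 to 1303 against 742 to 980.2), with 0 to 2 calls when any single array was left out. None of 3 tested skeletal muscle genes was called (limma, 1 at an unadjusted p under 0.05; 242 to 352 against 182 to 284), and Ckm, Acta1, Myh4, Tnnt3 and Pvalb were below the dim limit; Slc25a4 is abundant in muscle. No listed gene was at 0, and below the dim limit were also Amh, Prm2, Hspa1l, Cidec and Lep. KO replicate 3 had the highest sums of Leydig cell and macrophage genes, and 19 of the 43 tested members (44.2%) had their highest signal on it, against 33.9% of all tested genes. Slc25a18, Slc25a45, Slc25a15 and Slc25a35 were among these, and Slc25a31 had its lowest signal there. The part of these cell types in the changes of the carriers was not tested.

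**Figure D4:**
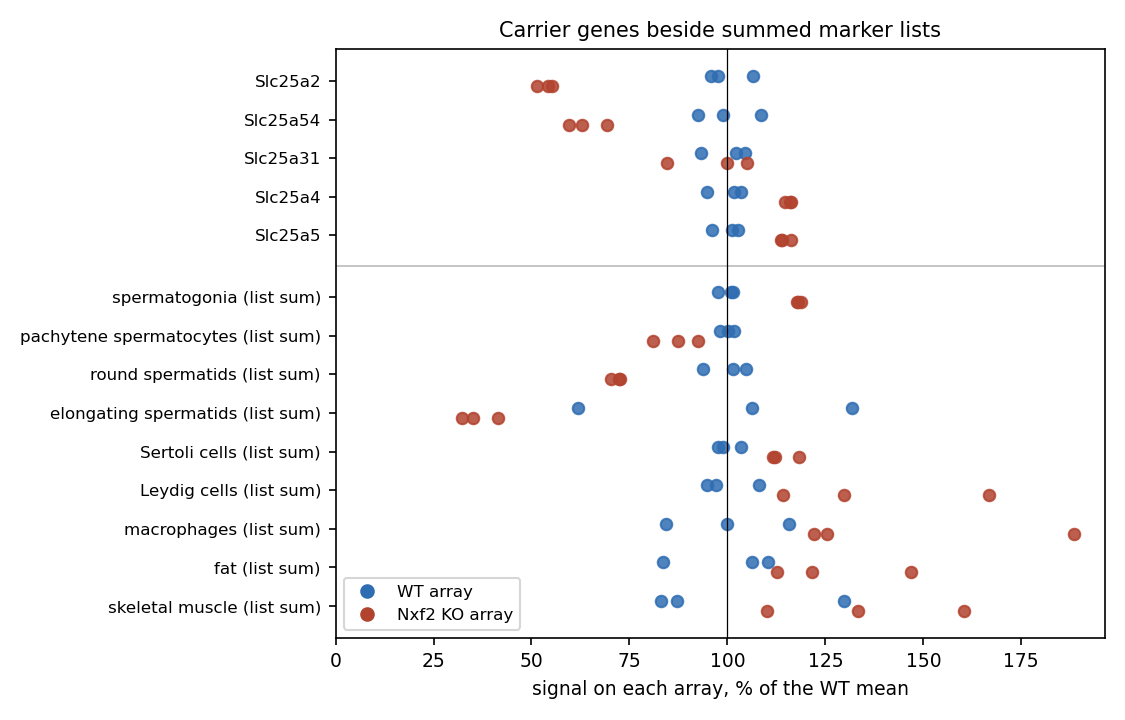
Signal of 5 Slc25a genes and summed signal of 9 marker lists on each array, as a percentage of the WT mean; WT arrays are blue and KO arrays red. Slc25a2 lies at 51.3% to 55.2% in KO and Slc25a54 at 59.6% to 69.4%. The sums of round spermatid genes lie at 70.2% to 72.6%, of pachytene genes at 81.1% to 92.5% and of elongating spermatid genes at 32.4% to 41.4%. Bright genes weigh most in a sum. The median log2 changes were -0.96 for round spermatid, -0.23 for pachytene and -1.44 for elongating spermatid genes. The part of these cell types in the changes of the carriers was not tested. Slc25a4 and Slc25a5 lie at 114% to 116%, with spermatogonial genes at 118% to 119%, Sertoli cell genes at 112% to 118%, Leydig cell genes at 114% to 167%, macrophage genes at 122% to 189% and fat genes at 113% to 147%. Skeletal muscle genes lie at 110% to 160% in KO, overlapping 83.1% to 130% on the WT arrays.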

How the data were processed

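The deposited table gives an unlogged intensity for every probe set on each of the 6 arrays. The submitters' processing notes name MAS5, with no version. Genome build and filters are not given in the sources used here. After trimming 2% of values at either end, each array had a mean of 150.0. Of 45101 probe sets, 64 controls were left out, and of the rest 34945 have 1 gene symbol in the platform table, 932 have several and 9160 are unnamed here.

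A pseudocount of 7, the rounded 25th percentile of the deposited values, was added before taking log2, so changes of dim genes are understated. The 27022 probe sets whose mean reached the 40th percentile, 20.5, were tested with limma 3.58.1 in R 4.3.3 (lmFit, eBayes, trend = TRUE; two-sided; no covariates). A probe set was called where its p, after Benjamini-Hochberg adjustment across the whole tested table, was under 0.05. Intervals are 95% intervals of the fit. All 44 members matched RefSeq by Entrez identifier, which gave chromosomes, and 34 have a promoter entry.

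The members, lists and rules were chosen with earlier results of these data known. Values on every array are given for the 4 carriers named in the comparison of germ cell and somatic types, for each called member and for the 4 largest changes per direction among the others. Alternatives were quantile normalization, median centring, pseudocounts of 1 and 39, no dim filter, a filter at the 60th percentile, no trend, array weights, the replicate block, the mean of a gene's probe sets and each array left out. On simulated KO against WT data of 27022 probe sets the fit recovered 33.9% of 59 changes of 0.5 on the log2 scale, 82.4% of 74 changes of 1 and 98.5% of 67 changes of 2. Of its 152 calls 5 were false. Only these probe sets were changed, with independent noise, whereas 2024 were called in the data, so these rates need not hold there. No change smaller than 0.5 was simulated.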

Additional observations from a re-analysis of the deposited data

How the results depend on the processing

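Slc25a2 kept its call in all 16 alternatives. The count of carriers called higher, 2 in the reported fit, was 0 after median centring, without the dim filter and without the intensity trend, 9 with array weights, 6 with the replicate block and 0 to 1 with 1 array left out. The count called lower was 4 with array weights and 1 to 2 with 1 array left out. Slc25a4 and Slc25a5 lost their calls at 0.17 and 0.16 after median centring, at 0.21 and 0.20 without the dim filter and without the trend, and Slc25a4 also at 0.10 as the mean of its probe sets, 1 of which is dim. With 1 array left out they were 0.17 to 0.23 and 0.17 to 0.21. Slc25a31 was 0.083 with array weights and -0.12 to 0.035 with 1 array left out. The shift of Slc25a2 to Slc25a5 was -0.97 with a pseudocount of 39.

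Other sign changes were all in genes that were not called: Slc25a34 at -0.012 (quantile normalization), Slc25a24, Slc25a34 and Slc25a44 at -0.023, -0.0056 and -0.011 (median centring), Slc25a24, Slc25a26, Slc25a41 and Slc25a44 at -0.022, 0.055, -0.038 and -0.016 (array weights), and Slc25a26 and Slc25a27 at 0.052 and -0.077 (mean of probe sets). With 1 array left out, Slc25a24 was -0.015 to 0.042, Slc25a25 -0.010 to 0.28, Slc25a26 -0.046 to 0.076, Slc25a34 -0.073 to 0.16, Slc25a44 -0.15 to 0.17 and Slc25a47 -0.23 to 0.12. The cause of these moves was not tested.

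The design text speaks of 3 pairs of testes, but no label says that equal numbers mark a pair. In the data, same-numbered arrays had correlations of 0.0793, 0.457 and 0.266 in their deviations, not all over 0.1, and 5 of 6 arrays correlated best with their own number, a hint from the data and not the design. With the replicate block, calls over all probe sets rose from 2024 to 4503, and Slc25a14, Slc25a15, Slc25a18 and Slc25a45 were called higher (adjusted p = 0.0215, 0.0284, 0.0080 and 0.0141). If the numbers do mark pairs, these 4 calls would stand beside the 4 reported.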
